A study of Mus musculus with 8 samples.

Results

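Interferon response genes were followed here in mouse thymocytes: 46 genes known to be switched on by interferons, chosen by name from a fixed list. The list was chosen with earlier results of these data known. The large families of guanylate-binding proteins, HIN-200 DNA sensors and Trim30 proteins were left out of it. All 46 symbols occurred among the 23420 gene symbols of the count files. The data came from 8 RNA-seq libraries of wild type thymus, 2 for each of 4 groups formed by 2 strains and 2 cell preparations. The strains were B6 and BALB, named no further in the labels. The preparations were whole thymocytes, a mixture of all stages together with any other cells in the suspension, and double-positive (DP) thymocytes. DP cells are the immature majority of the thymus that carry both CD4 and CD8. They were sorted as CD69-negative cells whose staining with H57, which binds the T cell receptor beta chain, was low or intermediate. No group carried a transgene, deletion or treatment in the labels, and the labels give no age or sex.

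Interferons are secreted proteins that signal through paired receptor chains and the kinases bound to them. Type I interferons lead to the assembly of a complex with STAT2 and IRF9 that binds an element with repeated GAAA letters in target promoters, while IRF1 is best known from responses to interferon-gamma. The targets sense foreign nucleic acids, block translation and virus assembly, attack vacuoles that hold parasites, and damp the signal itself. In the thymus, interferons are made at rest by epithelial and dendritic cells of the medulla, and thymocytes near the end of their maturation are known to carry a raised interferon signature.

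Reads assigned to genes numbered 2632083 to 5974684 per library, of which 3443 to 8149 fell in the 46 genes. Levels below are CPM, read counts scaled to a common total with TMM effective library sizes, and a count of 0 in a library allows up to 0.526 to 1.16 CPM (3 counts, counting error only). Whether the 2 libraries of a group stem from different animals is not in the labels. The p-values measure only the spread between these libraries, which may be technical in the groups other than whole BALB. The BALB DP libraries differed most from each other, with a chi-square per gene of 18.2 against 1.62 to 4.35 in the other groups. In whole BALB, replicate 1 held 12313 reads of the X-inactivation transcript Xist and none of the Y-linked Ddx3y, while replicate 2 held 203 and 725. Replicate 1 also held no read of the Y-linked Kdm5d, Uty and Eif2s3y, the pattern of a female. All other libraries held Ddx3y reads. Whole BALB replicate 2 had more Xist reads than the other groups (203 against 6 to 24) and fewer Eif2s3y reads (34 against 180 to 480). Its Ddx3y, Kdm5d and Uty reads lay within the range of those groups. Whether replicate 2 is free of female RNA was not tested. The 2 whole BALB libraries thus cannot stem from the same single animal, and sex enters every comparison with whole BALB. With the second library alone standing for BALB DP and for whole BALB, the counts of called members given below (18, 29, 6, 4 and 1) were 27, 28, 6, 5 and 1, while the shares called of all tested genes were 23.9, 13.7, 11.9, 8.89 and 1.18%. In this and every other fit that leaves a group with 1 library, that library is assumed to vary like the other groups, which give the spread. Summed levels of 8 DP markers (among them Rag1, Rag2, Cd4 and Cd8a) were 19982 to 20928 CPM in B6 DP and 12260 to 12841 in whole B6, and 12872 to 13014 in BALB DP and 8944 to 9548 in whole BALB, with none of the 8 at 0 in any group. The DP label therefore matched its markers in both strains.

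The promoter letters that the complex with STAT2 and IRF9 is known to bind were looked up in the RefSeq promoter table (build GRCm38.p6, 250 bases before to 50 bases after each start), which held 35 of the 46 genes. The motif searched was GAAA, any 2 letters and GAAA again, on both strands and with overlaps between matches allowed. It occurred for 14 of those 35 genes (40.0%, exact 95% interval 23.9 to 57.9%), and for 1079 of all 27025 genes in the table (3.99%). The sequences below are those of members whose levels are described in the following paragraphs, from IFIT and OAS genes that differed between the preparations, a pair of IRG genes that differed between the strains, and 2 genes with a match that were not called in any comparison. Each is written 5′ to 3′ along the gene's strand with the matches in capitals (TTTC, 2 letters and TTTC where the match is on the other strand).
Ifit1, chr19:34640770-34640828, plus strand: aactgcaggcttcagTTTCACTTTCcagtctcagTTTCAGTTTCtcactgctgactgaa
Ifit3, chr19:34583358-34583431, plus strand: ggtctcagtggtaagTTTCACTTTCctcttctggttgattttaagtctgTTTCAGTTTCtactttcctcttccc
Oas3, chr5:120777710-120777749, minus strand: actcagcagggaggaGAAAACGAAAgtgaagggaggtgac
Igtp, chr11:58199507-58199546, plus strand: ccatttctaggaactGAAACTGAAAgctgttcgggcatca
Irgm2, chr11:58214898-58214937, plus strand: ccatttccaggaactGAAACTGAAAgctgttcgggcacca
Isg15, chr4:156200860-156200911, minus strand: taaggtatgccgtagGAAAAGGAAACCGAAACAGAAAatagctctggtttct
Rsad2, chr12:26456548-26456587, minus strand: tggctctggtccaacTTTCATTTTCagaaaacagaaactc
Ifit1 and Ifit3 each held 2 matches on the opposite strand, between 85 and 156 bases before the start. Isg15 held 3 overlapping matches between 66 and 78 bases before it. The Igtp and Irgm2 matches stood 34 and 64 bases before the start, and stretches of 50 bases around them were identical at 48 positions. A match describes these letters only and is not evidence of binding.

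In all 4 groups most of the 46 genes were at low or moderate level. Adar, Trim25, Dtx3l and Sp100 averaged at least 100 CPM in every group, Epsti1 did so in both B6 groups, and Parp14 and Samd9l in both whole groups. Levels under 1 CPM were found for 10 genes in each DP group and for 1 gene in each whole group. That gene was Ifi47, a GTPase of the IRG family, with no read in any library. Per kilobase of exon, which allows genes to be ranked against each other, Epsti1 led in B6 with 72.7 CPM per kb in DP cells and 63.0 in whole thymocytes, while Trim25 led in BALB DP with 27.0 and Sp100 in whole BALB with 30.5. Dtx3l followed Trim25 in BALB DP with 23.7 CPM per kb, a gap smaller in proportion than that between the 2 Trim25 libraries (133 and 177 CPM). In whole BALB, Dtx3l and Trim25 followed Sp100 with 29.2 and 29.0 CPM per kb. The gap from Sp100 to Dtx3l was likewise smaller in proportion than that between the 2 Dtx3l libraries (149 and 185 CPM). The 46 genes summed to 1518 and 1616 CPM in the B6 DP libraries, 1925 and 1979 in whole B6, 1248 and 1337 in BALB DP, and 1909 and 2034 in whole BALB. Both whole groups thus lay above both DP groups, and the BALB DP libraries lay lowest. Epsti1 alone made up 10.8% of the sum in B6 DP and 7.49% in whole B6. In BALB DP and whole BALB it made up 0.583% and 1.05%. The strain difference of the sums in DP cells is therefore in part that of this gene. In whole thymocytes the sums of the strains overlapped, although Epsti1 made up less of the sum in BALB.

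**Figure D1:**
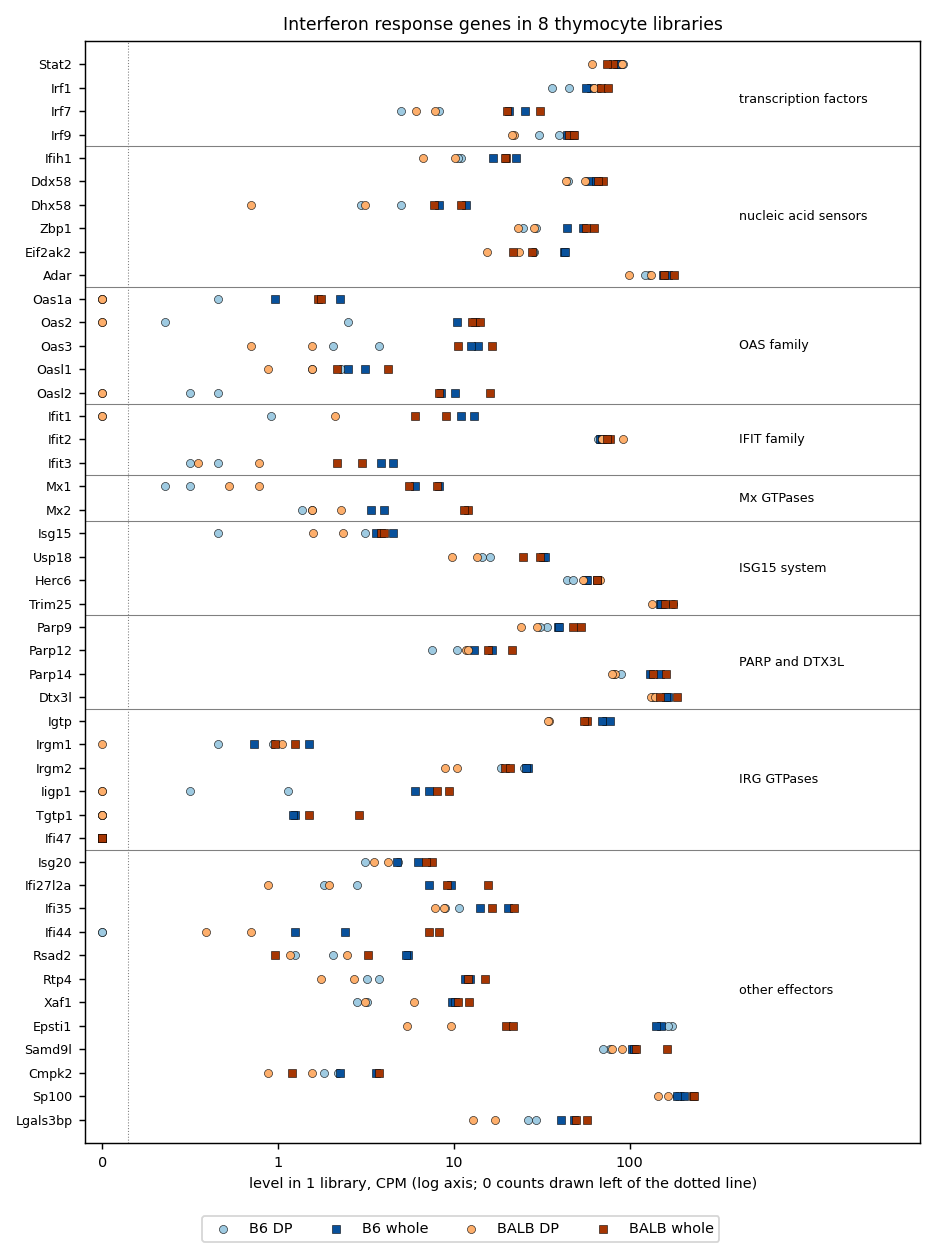
Level of each of the 46 interferon response genes in each of the 8 libraries, in CPM on a log axis, with libraries at 0 counts drawn left of the dotted line; circles are DP and squares whole thymocytes, blue B6 and orange BALB. Most OAS, Mx and IFIT genes show squares to the right of circles in both strains, while Stat2, Ifit2 and Trim25 show all 8 points together and Epsti1 splits by strain.

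The first comparison was between whole and DP thymocytes within each strain. Called here means an adjusted p under 0.05 by the quasi-likelihood F test of edgeR, after Benjamini-Hochberg adjustment over all 11409 genes tested. In B6, 18 of the 46 genes were called higher in whole thymocytes and 0 lower, where 6.89% of all tested genes were called higher, 3.27% lower and 10.2% in either direction. In BALB, 29 were called higher and 0 lower, where 10.6% of all tested genes were called higher, 6.59% lower and 17.2% in either direction. At an unadjusted p under 0.05, in either direction, there were 28 and 33 members. The median log2 fold change over the 42 tested members was 0.73 in B6 and 1.16 in BALB, beside 0.0023 and -0.0042 for all genes. These counts need the filter on low counts in view: Oas1a, Irgm1, Tgtp1 and Ifi47 did not pass it. In B6, 29 tested members stood above the filter's level of 2.54 CPM in DP cells and 10 of those were called, while 13 stood below it and could pass only through whole thymocytes or the other strain, with 8 called. In BALB the numbers were 17 called of 26 above and 12 called of 16 below. With bulk RNA, fewer cells of a type and less RNA per cell cannot be told apart.

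The same 17 genes were called higher in both strains: Irf7, Ifih1, Zbp1, Oas2, Oas3, Oasl2, Ifit1, Ifit3, Mx1, Usp18, Parp14, Iigp1, Ifi27l2a, Ifi44, Rtp4, Xaf1 and Lgals3bp. They are 17 of the 18 calls in B6 and 17 of the 29 in BALB. The libraries of the 2 strains are separate, but the same fit gave the spread for both. The share of all tested genes called higher in both strains was not counted. Oas2, Oasl2, Ifit1, Ifit3, Mx1, Iigp1, Ifi27l2a and Ifi44 stood below the filter's level in DP cells of both strains. Those genes could pass the filter only through whole thymocytes. Irf1 was called in B6 alone and 12 genes in BALB alone, but a difference between strains was called by its own test for Epsti1 only, as given further on. The B6 count rested on few libraries: it was 8 to 12 when any of the 4 B6 libraries was left out (8 without DP replicate 2, 10 without DP replicate 1, 10 without whole replicate 1, 12 without whole replicate 2), and 26 or 27 when BALB DP replicate 1 or 2 was left out. The share called of all tested genes moved in the same direction, to 3.19 to 4.09% in the first 4 of these fits and to 18.4 and 18.5% in the last 2, from 10.2%. Irf7, Oas2, Oasl2, Ifit1, Mx1, Iigp1 and Rtp4 kept the B6 call whichever single library was removed. Of these, Oas2, Oasl2, Ifit1, Mx1 and Iigp1 are among the genes that could pass the filter only through whole thymocytes. In BALB the count was 23 to 31 over the same 8 fits, and 21 of the 29 kept their call in each.

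**Figure D2:**
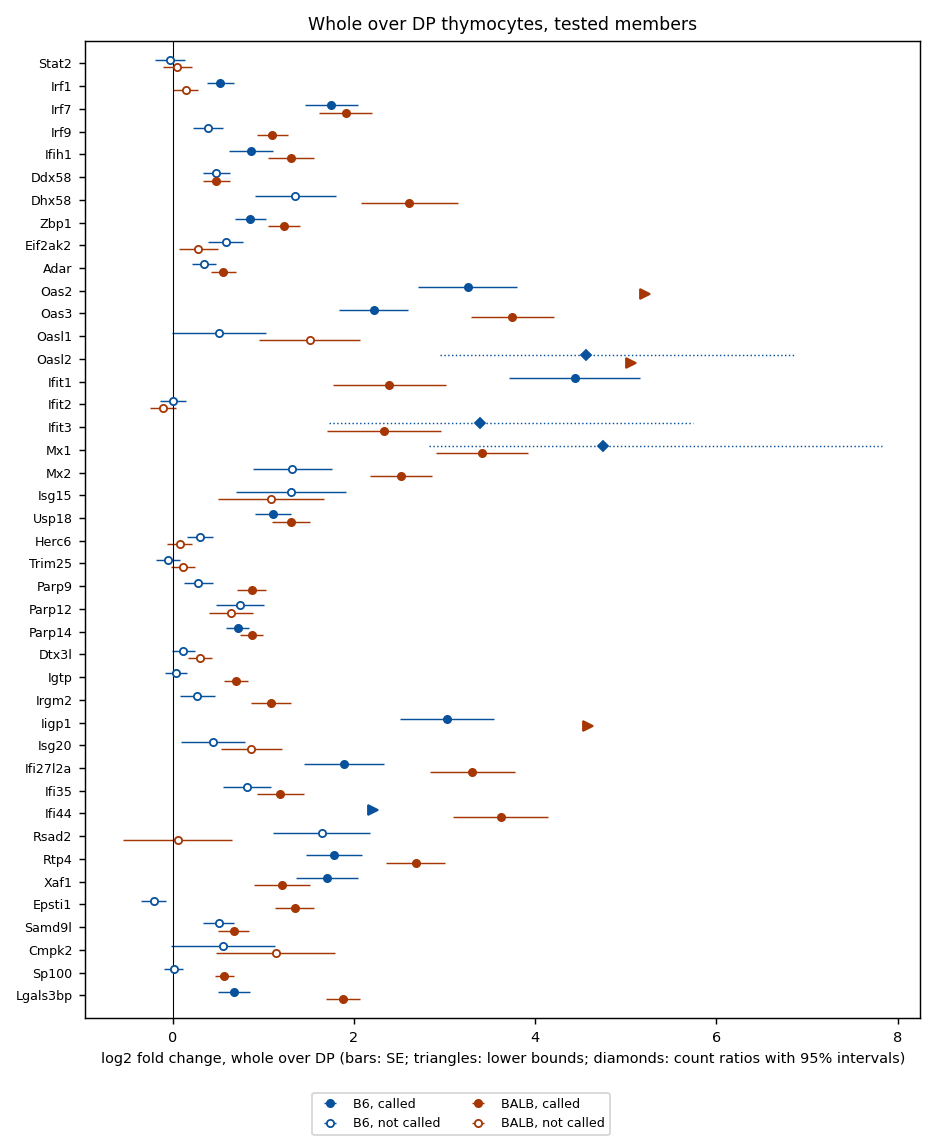
Log2 fold change of whole over DP thymocytes for the 42 tested members in B6 (blue) and BALB (brown), filled where called, with bars of 1 standard error; triangles are lower bounds for genes with no read in DP cells and diamonds are count ratios with 95% counting intervals for genes with 1 to 3 reads there. No filled point lies left of 0, and Oas2, Oasl2, Mx1 and Iigp1 are among those farthest to the right.

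Among the 4 transcription factors, Irf7, which amplifies interferon transcription, showed the clearest difference. Its level was 5.02 and 8.23 CPM in B6 DP against 25.5 and 20.6 in whole B6, and 6.13 and 7.76 in BALB DP against 20.05 and 30.7 in whole BALB. All whole libraries were above all DP libraries, with a log2 fold change of 1.75 ± 0.30 (SE; adjusted p 0.00325, edgeR) in B6 and 1.91 ± 0.29 (adjusted p 0.00107) in BALB. Irf9, the DNA-binding part of the type I complex, was called in BALB, at 22.1 and 21.4 CPM in DP cells and 45.4 and 48.2 in whole thymocytes (log2 1.10 ± 0.17, adjusted p 0.00112, edgeR). In B6 it was 39.9 and 30.6 CPM in DP cells and 47.7 and 44.0 in whole thymocytes and was not called. Irf1, the factor best known from interferon-gamma responses, was called in B6 with a small difference (45.2 and 36.3 CPM in DP, 60.5 and 56.4 in whole; log2 0.53 ± 0.15, adjusted p 0.0405, edgeR), and that call ended without any of 6 single libraries, the exceptions being the BALB DP pair (adjusted p up to 0.317 with a library left out, 0.00300 to 1 over all alternatives). Stat2 was at 61.3 to 91.7 CPM in all 8 libraries, with DP and whole libraries interleaved.

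Of the 6 nucleic acid sensors, Ifih1 (MDA5, a sensor of long double-stranded RNA) and Zbp1 (a sensor of Z-form nucleic acids) were called higher in whole thymocytes in both strains. Zbp1 was at 24.8 and 29.2 CPM in B6 DP and 54.5 and 44.3 in whole B6, and at 23.1 and 28.7 in BALB DP and 56.8 and 62.9 in whole BALB. The log2 fold change of Zbp1 was 0.86 ± 0.18 (adjusted p 0.00932, edgeR) in B6 and 1.23 ± 0.18 (adjusted p 0.000661) in BALB. Whole and DP libraries did not overlap, although the B6 call ended without DP replicate 1 or whole replicate 1 (adjusted p up to 0.126 with a library left out, 0.000136 to 0.324 over all alternatives).
Ifih1 was at 11.0 and 10.5 CPM in B6 DP against 22.5 and 16.7 in whole B6 (log2 0.87 ± 0.24, adjusted p 0.0410, edgeR), and at 6.66 and 10.1 in BALB DP against 19.8 and 19.5 in whole BALB (log2 1.31 ± 0.25, adjusted p 0.00416). The B6 call of Ifih1 ended without any B6 or whole BALB library (adjusted p up to 0.332 with a library left out, 0.00505 to 0.556 over all alternatives).
Dhx58 (LGP2, a regulator of the RNA helicase sensors) was called in BALB, with 0.701 and 3.11 CPM in DP cells and 7.73 and 11.0 in whole thymocytes (log2 2.61 ± 0.53, adjusted p 0.00592, edgeR). Its DP libraries were far apart from each other, with a log2 value of 1.57 without replicate 1 and 3.66 without replicate 2, and the call ended without BALB DP replicate 1 or whole BALB replicate 2 (adjusted p up to 0.0717 over all alternatives). In B6 Dhx58 was 5.02 and 2.97 CPM against 11.7 and 8.22, not called. Ddx58 (RIG-I) and Adar, an enzyme that edits double-stranded RNA, were called in BALB with log2 changes of 0.48 and 0.56. The Adar call ended without BALB DP replicate 1 or whole BALB replicate 2, and the Ddx58 call without any library but BALB DP replicate 2 (adjusted p up to 0.130 and 0.223 with a library left out, and up to 1 over all alternatives of each). Eif2ak2 (PKR), a kinase that halts translation, was not called in either strain.

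The OAS enzymes, which make oligoadenylates that activate RNase L, were low in DP cells. Oas2 had 2.51 and 0.229 CPM in B6 DP and 0 in both BALB DP libraries, against 13.2 and 10.4 in whole B6 and 14.0 and 12.7 in whole BALB. Oasl2 had 0.314 and 0.457 CPM in B6 DP and 0 in BALB DP, against 8.50 and 10.2 in whole B6 and 8.21 and 15.98 in whole BALB. Oas3 had 3.77 and 2.06 CPM in B6 DP and 0.701 and 1.55 in BALB DP, against 13.7 and 12.6 in whole B6 and 10.6 and 16.5 in whole BALB.
No DP library reached any whole library for these 3 genes.
In B6 the log2 fold change was 3.26 ± 0.55 for Oas2 (adjusted p 0.00401, edgeR) and 2.22 ± 0.38 for Oas3 (adjusted p 0.00345), and Oasl2 had a count ratio of 23.5 (95% counting interval 7.76 to 117; adjusted p 0.00146). In BALB, where a fold can only be a lower bound against 0 counts (3 counts over the group), Oas2 was at least 36.9-fold higher (adjusted p 0.000259, edgeR) and Oasl2 at least 33.2-fold higher (adjusted p 0.000164) in whole thymocytes, and Oas3 had a log2 fold change of 3.75 ± 0.46 (adjusted p 0.000223). The Oas3 call in B6 ended without DP replicate 2 (adjusted p 0.0554, the highest over its alternatives, from 2.78e-08). The B6 value for Oas2 rested on 8 reads and 1 read in the DP libraries and was 5.51 without DP replicate 1 and 2.24 without DP replicate 2. The BALB value for Oas3 was 3.09 without DP replicate 1. Oas1a did not pass the filter and was at 0 to 0.457 CPM in DP and 0.968 to 2.25 in whole libraries. Oasl1 was at 0.876 to 4.24 CPM and was not called.

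The 3 IFIT genes, whose products bind viral RNA ends, lie together on chromosome 19 and did not move together. Ifit1 was at 0 and 0.914 CPM in B6 DP and 11.0 and 13.1 in whole B6 (log2 4.44 ± 0.72, adjusted p 0.00267, edgeR), and at 2.10 and 0 in BALB DP and 6.04 and 8.99 in whole BALB (log2 2.39 ± 0.63, adjusted p 0.0220). Ifit3 was at 0.314 and 0.457 CPM in B6 DP and 4.50 and 3.87 in whole B6, a count ratio of 10.5 (95% counting interval 3.31 to 53.6; adjusted p 0.00541, edgeR), and at 0.350 and 0.776 in BALB DP and 2.17 and 2.996 in whole BALB (log2 2.33 ± 0.63, adjusted p 0.0252). Ifit2 was at 65.8 to 91.3 CPM in all 8 libraries, and its highest value was in a DP library.
The Ifit1 folds rested on 1 DP library in each strain, as the other had no read. They were 3.67 on the log2 scale without DP replicate 1 in B6 and 1.79 without DP replicate 2 in BALB, and without the library that held the reads no fold can be given. The BALB value for Ifit3 was 1.69 without DP replicate 1. Whole and DP libraries were apart for Ifit1 and Ifit3 and interleaved for Ifit2, in both strains. The BALB calls of Ifit1 and Ifit3 ended without whole BALB replicate 2 (adjusted p 0.130 and 0.143), with alternatives from 2.86e-06 to 0.174 for Ifit1 and from 0.0183 to 0.274 for Ifit3. The Ifit3 call in BALB also ended without BALB DP replicate 1, whole BALB replicate 1 or either whole B6 library, and in B6 without either DP library or whole replicate 1 (adjusted p up to 0.0696). In the RefSeq table Ifit1 and Ifit3 have the motif shown above and Ifit2 has no match in either of its 2 promoters. Over all members, 4 of 11 tested genes with the motif were called in B6 and 7 of 11 in BALB, beside 6 and 11 of 20 without it and 8 and 11 of 11 with no entry in the table. Isg15, Rsad2, Stat2 and Eif2ak2 have the motif and were not called between the preparations in either strain.

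The Mx GTPases assemble around viral nucleocapsids, and RefSeq lists both mouse genes as transcribed pseudogenes in this build. Mx1 was at 0.314 and 0.229 CPM in B6 DP against 5.999 and 8.22 in whole B6, a count ratio of 27.0 (95% counting interval 7.13 to 228; adjusted p 0.000694, edgeR). In BALB it was at 0.526 and 0.776 CPM in DP against 5.55 and 7.99 in whole thymocytes (log2 3.41 ± 0.51, adjusted p 0.000915, edgeR). Mx2 was at 2.28 and 1.55 CPM in BALB DP against 12.1 and 11.5 in whole BALB (log2 2.52 ± 0.34, adjusted p 0.000442, edgeR), and at 1.57 and 1.37 in B6 DP against 3.999 and 3.39 in whole B6, which was not called.
Both genes were higher in every whole library than in any DP library of the same strain.

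In the ISG15 system, 1 of 4 genes was called in each strain. Usp18, a protease that removes ISG15 from proteins and restrains the type I receptor, was at 16.01 and 14.4 CPM in B6 DP and 32.2 and 33.1 in whole B6 (log2 1.11 ± 0.20, adjusted p 0.00484, edgeR). In BALB it was at 9.81 and 13.6 CPM in DP and 24.9 and 31.0 in whole thymocytes (log2 1.31 ± 0.21, adjusted p 0.00152, edgeR). Its groups did not overlap, and the B6 call ended without DP replicate 2 (adjusted p 0.0570; 1.93e-05 to 0.0720 over all alternatives). Isg15 itself, the ubiquitin-like modifier, was at 0.457 to 4.50 CPM and was not called. Herc6 and Trim25, both ubiquitin-ligase family proteins, were at 44.3 to 67.4 and 133 to 177 CPM and were not called.

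Among the PARP family and its partner, Parp14 was called in both strains. It was at 88.8 and 81.1 CPM in B6 DP and 148 and 131 in whole B6 (log2 0.72 ± 0.13, adjusted p 0.00407, edgeR), and at 82.5 and 78.8 in BALB DP and 136 and 160.5 in whole BALB (log2 0.87 ± 0.13, adjusted p 0.000745). Parp9 was called in BALB, with 29.8 and 24.1 CPM in DP and 52.9 and 47.7 in whole thymocytes (log2 0.88 ± 0.16, adjusted p 0.00315, edgeR), and not in B6, with 33.9 and 30.8 against 39.2 and 39.4.
Whole libraries of BALB were above DP libraries for both genes. The B6 call of Parp14 ended without DP replicate 2 or whole replicate 1 (adjusted p up to 0.0768 with a library left out, 4.18e-06 to 0.623 over all alternatives). Dtx3l, the ubiquitin ligase that pairs with PARP9 and shares 458 exonic bases with its gene, was at 132 to 185 CPM and was not called, and neither was Parp12. Without strand, reads in the shared bases of such neighbours cannot be told apart.

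The IRG GTPases, which act on vacuoles of intracellular parasites, differed within the family. Iigp1, an effector that loads onto such vacuoles, was at 0.314 and 1.14 CPM in B6 DP against 5.999 and 7.26 in whole B6 (log2 3.02 ± 0.52, adjusted p 0.00443, edgeR). That value was 4.28 without DP replicate 2. It was at 0 in both BALB DP libraries against 9.42 and 7.99 CPM in whole BALB, at least 24.1-fold higher (adjusted p 0.000175, edgeR). Tgtp1 did not pass the filter, with 0 counts in all 4 DP libraries and 1.21 to 2.90 CPM in the whole libraries. It shares 223 exonic bases with Gm12185, and the part of reads left out as ambiguous or not uniquely placed was not tested.
Igtp and Irgm2, which encode regulators of the family, were called in BALB alone. Igtp was at 34.7 and 34.2 CPM in BALB DP and 57.5 and 54.7 in whole BALB (log2 0.70 ± 0.13, adjusted p 0.00377, edgeR), and Irgm2 at 8.93 and 10.5 and then 19.6 and 21.0 (log2 1.09 ± 0.22, adjusted p 0.00559). In B6, Igtp was at 69.7 to 77.4 CPM and Irgm2 at 18.5 to 26.2 over both preparations. Irgm1 had 0 to 6 reads in a library and did not pass the filter.

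Of the 12 other effectors, 5 were called higher in whole thymocytes of B6 and 9 in BALB. Rtp4, a receptor transporter protein, was at 3.77 and 3.20 CPM in B6 DP and 11.5 and 12.3 in whole B6 (log2 1.78 ± 0.31, adjusted p 0.00349, edgeR), and at 1.75 and 2.72 in BALB DP and 12.1 and 14.98 in whole BALB (log2 2.68 ± 0.33, adjusted p 0.000223). Lgals3bp, a secreted binding partner of galectins, was at 12.8 and 17.1 CPM in BALB DP and 49.8 and 56.9 in whole BALB (log2 1.88 ± 0.19, adjusted p 5.87e-05, edgeR). In B6 it was at 29.5 and 26.3 against 40.7 and 48.1 (log2 0.68 ± 0.18), a difference whose call ended without any B6 or whole BALB library (adjusted p 0.0319 in edgeR, 0.00152 to 1 over all alternatives).
Both genes were higher in every whole library of a strain. Ifi27l2a, a small membrane protein, was at 2.83 and 1.83 CPM in B6 DP against 7.25 and 9.68 in whole B6, and at 0.876 and 1.94 in BALB DP against 9.18 and 15.7 in whole BALB (BALB log2 3.31 ± 0.47, adjusted p 0.000659, edgeR, and log2 2.65 without BALB DP replicate 1). Xaf1, a partner of the apoptosis inhibitor XIAP, was at 2.83 and 3.20 CPM in B6 DP against 9.75 and 10.2 in whole B6 (log2 1.70 ± 0.34, adjusted p 0.00886, edgeR), and its BALB call (log2 1.21, adjusted p 0.0184, and log2 1.86 without BALB DP replicate 1) ended without either whole BALB library (adjusted p up to 0.128 over all alternatives). Ifi44 had no count in B6 DP and 1.25 and 2.42 CPM in whole B6, at least 4.65-fold higher (adjusted p 0.0154, edgeR), and 0.701 and 0.388 in BALB DP against 8.21 and 7.24 in whole BALB.
The B6 calls of Xaf1 and Ifi27l2a ended without any of the 4 B6 libraries, and that of Ifi44 without either B6 DP library or whole replicate 2 (adjusted p up to 0.0700, 0.173 and 0.118 over all alternatives). Samd9l, Sp100, Ifi35 and Epsti1 were called in BALB alone, with log2 changes of 0.67, 0.57, 1.19 and 1.35. The Samd9l call ended without whole BALB replicate 1 (adjusted p 0.186) and that of Ifi35 without whole BALB replicate 2 (adjusted p 0.0838), with alternatives up to 0.784 and 0.0838. Isg20, an exonuclease, Rsad2 (viperin) and its neighbour Cmpk2 were not called in either strain.

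Markers of several other cell types moved in the same direction. Beside the counts below, 6.89% of all tested genes were called higher and 3.27% lower in whole B6. In whole BALB it was 10.6% and 6.59%. These counts need the filter in view. It left 11 of the 12 myeloid and dendritic, 4 of the 5 plasmacytoid and 9 of the 11 epithelial markers. It also left 5 of the 7 B cell, 6 of the 8 NK and innate-like, 3 of the 7 endothelial and mesenchymal markers, and 6 of the 8 immediate early genes. Tested markers with no read in DP cells could pass only through whole thymocytes or the other strain. Of 8 mature thymocyte markers, 6 were called higher in whole B6 and 8 in whole BALB, with summed levels of 253 to 276 CPM in B6 DP, 551 to 619 in whole B6, 204 to 245 in BALB DP and 697 to 719 in whole BALB, and S1pr1 at 0 in B6 DP. Of 12 myeloid and dendritic cell markers, 8 were called higher in each strain, with sums of 24.8 to 25.4, 122 to 124, 26.4 to 27.7 and 145 to 158 CPM in the same order, Itgax at 0 in B6 DP, and Adgre1 and Clec9a at 0 in BALB DP. The 5 plasmacytoid dendritic cell markers, 3 of them called in each strain, summed to 6.59 to 11.2, 45.5 to 47.7, 2.33 to 4.03 and 42.2 to 47.8 CPM, with Cox6a2 at 0 in BALB DP.
All of these lists were thus higher in whole thymocytes, without overlap. Of 11 thymic epithelial markers, 5 were called higher in B6 and 7 in BALB, with sums of 23.5 to 25.1, 51.0 to 60.7, 18.2 to 20.1 and 104 to 114 CPM. Foxn1, Krt5, Krt8 and Krt14 were at 0 in B6 DP, and Foxn1, Krt14, Prss16 and Aire in BALB DP. The 7 B cell markers, 3 and 4 of them called higher, summed to 10.4 to 11.4, 22.5 to 26.5, 3.88 to 5.08 and 16.7 to 22.0 CPM, with Pax5 at 0 in BALB DP. The 8 markers of NK and innate-like T cells, 5 and 4 of them called higher, summed to 8.48 to 10.5, 65.5 to 70.5, 13.7 to 20.6 and 103 to 115 CPM, with Klrb1c, Ncr1, Klrd1, Zbtb16 and Il2rb at 0 in B6 DP and Ncr1, Klrd1 and Il2rb in BALB DP.
The 7 endothelial and mesenchymal markers, 1 of them called higher in each strain, summed to 143 to 162, 156 to 169, 123 to 137 and 135 to 165 CPM. Their sums overlapped between the preparations in both strains. Immediate early genes, known to respond to cell handling, ran the other way at 221 to 279, 159 to 179, 331 to 342 and 198 to 215 CPM, with 3 of 8 called lower and 1 higher in whole B6, and 4 lower and 1 higher in whole BALB. The part of these cells and of handling in the differences of the interferon response genes was not tested.

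**Figure D3:**
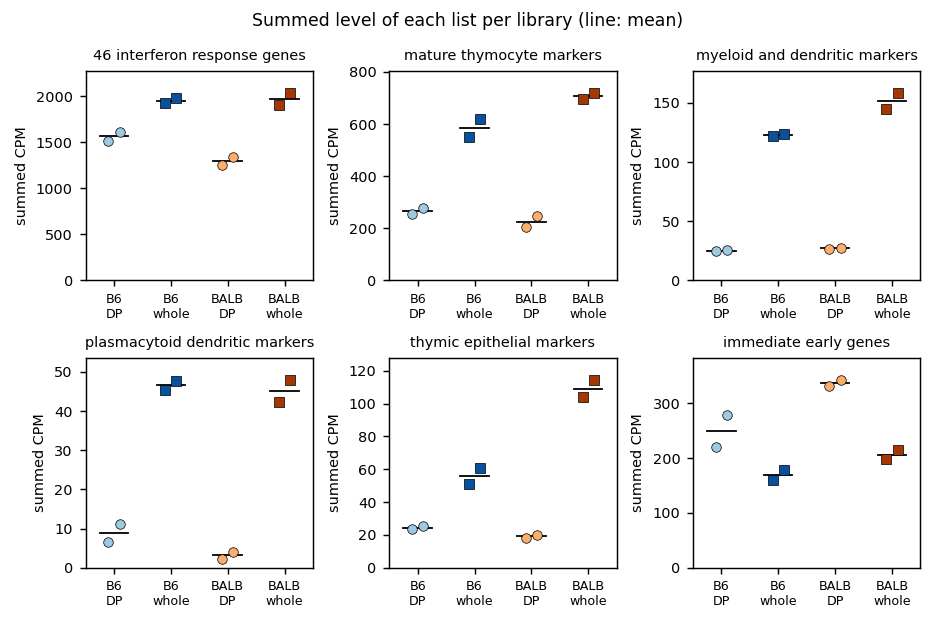
Summed level in each library, in CPM, of the 46 interferon response genes and of 5 marker lists, with lines at group means. The interferon response genes and the mature thymocyte, myeloid, plasmacytoid and epithelial lists are higher in whole than in DP libraries of both strains, while the immediate early genes are lower.

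The second comparison was between the strains within each preparation. In DP cells 6 of the 46 genes were called, 5 lower and 1 higher in BALB, where 13.0% of all tested genes were called (6.14% lower and 6.85% higher). In whole thymocytes 4 were called, 2 lower and 2 higher in BALB, where 4.59% of all tested genes were called (2.61% lower and 1.98% higher). The members' shares, over the 42 tested, were 14.3% and 9.52%. The median log2 fold change over the tested members was -0.18 in DP cells and 0.14 in whole thymocytes, beside 0.0028 and 0.018 for all genes. Epsti1 was the only member called in both. The 2 strain comparisons use separate libraries, but each shares groups with the comparisons of preparations above, so that a low value in 1 group enters both. Without BALB DP replicate 2, 12 of 43 tested members (27.9%) were called in DP cells, where 29.3% of all tested genes were, so that the members' share was not above that of all genes. In whole thymocytes, 3 of the 4 calls were among the 41 tested members above the filter's level in B6. Ifi44 stood below it there and could pass the filter only through whole BALB, where it is high.

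**Figure D4:**
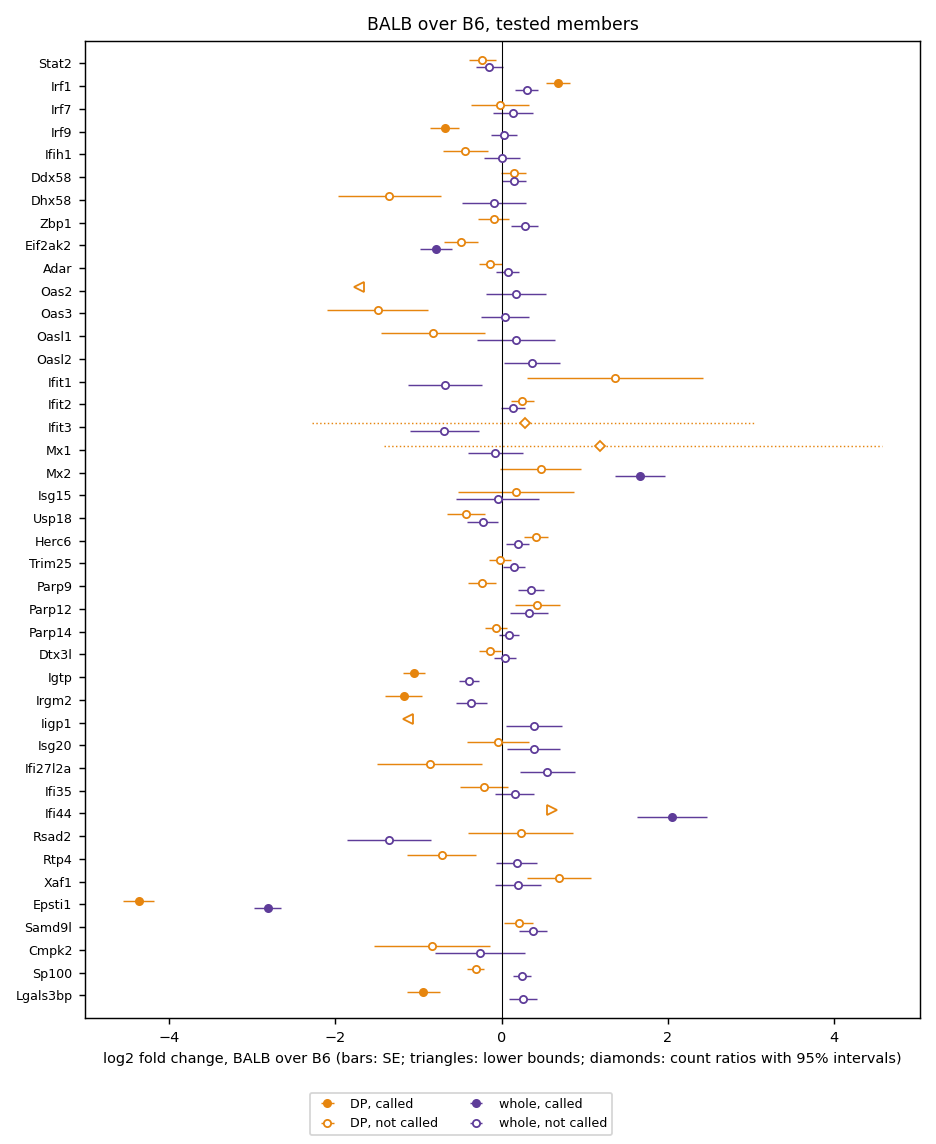
Log2 fold change of BALB over B6 for the tested members in DP (orange) and whole thymocytes (purple), filled where called, with bars of 1 standard error; triangles are lower bounds and diamonds count ratios with 95% counting intervals, and Oasl2 in DP cells has no point because both groups had 3 counts or fewer. Epsti1 stands far to the left in both preparations.

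Epsti1 (epithelial stromal interaction 1, chr14:77904239-78002656 in GRCm38, an interferon-inducible gene) differed most. Its level was 173 and 164 CPM in B6 DP and 151 and 142 in whole B6, against 9.64 and 5.44 in BALB DP and 19.8 and 21.7 in whole BALB. All 4 B6 libraries were far above all 4 BALB libraries. The log2 fold change of BALB over B6 was -4.37 ± 0.19 in DP cells (adjusted p 7.89e-08, edgeR) and -2.81 ± 0.16 in whole thymocytes (adjusted p 1.11e-06), and both calls held in every alternative run. No exon of another annotated gene overlapped it. Within BALB it was higher in whole than in DP libraries (log2 1.35 ± 0.21, adjusted p 0.00130, edgeR), whereas in B6 the log2 value was -0.21 (adjusted p 0.414).
The test of that difference, the interaction of strain and preparation, gave a log2 value of 1.55 ± 0.25 (adjusted p 0.0486, edgeR), where 0.123% of all tested genes were called (0.105% higher and 0.0175% lower). At an unadjusted p under 0.05 there were 10 members, and the share of all tested genes at that p was not counted. Epsti1 was the only member of the 46 called in the interaction. The call ended without any B6 library or any whole BALB library (adjusted p up to 0.310 with a library left out, 1.46e-06 to 0.310 over all alternatives), and the log2 value was 1.49 to 1.62 in those fits. Without BALB DP replicate 2, Igtp, Sp100 and Lgals3bp were called as well, 4 of 43 tested members (9.30%), where 11.0% of all tested genes were called.

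The paired IRG genes Igtp and Irgm2 (chr11:58199556-58207592 and chr11:58214977-58222783) were lower in BALB DP cells. Igtp was at 71.9 and 71.8 CPM in B6 DP and 34.7 and 34.2 in BALB DP (log2 -1.06 ± 0.13, adjusted p 0.000322, edgeR). Irgm2 was at 25.1 and 18.5 CPM in B6 DP and 8.93 and 10.5 in BALB DP (log2 -1.18 ± 0.22, adjusted p 0.00502, edgeR). The groups did not overlap, and both calls held with any single library left out. In whole thymocytes Igtp was at 69.7 and 77.4 CPM in B6 and 57.5 and 54.7 in BALB, and Irgm2 at 26.2 and 25.9 and at 19.6 and 21.0, and neither was called. The interaction was not called for Igtp (adjusted p 0.219, edgeR) or Irgm2 (adjusted p 0.353). The 2 genes share 162 exonic bases, 8.01% of those of Igtp and 4.39% of those of Irgm2, and reads in those bases cannot be told apart without strand.

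Irf9 and Lgals3bp were also called lower in BALB DP, and Irf1 higher. Irf9 was at 39.9 and 30.6 CPM in B6 DP and 22.1 and 21.4 in BALB DP (log2 -0.68 ± 0.18, adjusted p 0.0252, edgeR). Lgals3bp was at 29.5 and 26.3 CPM in B6 DP and 12.8 and 17.1 in BALB DP (log2 -0.94 ± 0.20, adjusted p 0.0105, edgeR). Irf1 was at 45.2 and 36.3 CPM in B6 DP and 67.1 and 62.5 in BALB DP (log2 0.68 ± 0.15, adjusted p 0.0104, edgeR).
The DP groups did not overlap for these genes, but each call ended with a library left out. For Irf9 and Lgals3bp it was B6 DP replicate 1 or BALB DP replicate 1 (adjusted p up to 0.199 and 0.0852), and for Irf1 B6 DP replicate 2 (adjusted p 0.142). Over all alternatives their adjusted p ran from 0.00766 to 0.871, 0.000323 to 0.267 and 0.000962 to 0.803. Immediate early genes, given above, were higher in the BALB DP than in the B6 DP libraries, and their part in the Irf1 difference was not tested. The OAS genes were low in DP cells of both strains: Oas2 was at least 3.29-fold lower in BALB (adjusted p 0.0756, edgeR) and Iigp1 at least 2.19-fold lower (adjusted p 0.0663), neither called.

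In whole thymocytes Mx2 and Ifi44 were higher and Eif2ak2 lower in BALB. Mx2 was at 3.999 and 3.39 CPM in whole B6 and 12.1 and 11.5 in whole BALB (log2 1.67 ± 0.31, adjusted p 0.00690, edgeR). Ifi44 was at 1.25 and 2.42 CPM in whole B6 and 8.21 and 7.24 in whole BALB (log2 2.05 ± 0.42, adjusted p 0.0182, edgeR). Eif2ak2 was at 42.5 and 43.1 CPM in whole B6 and 21.7 and 27.7 in whole BALB (log2 -0.79 ± 0.20, adjusted p 0.0402, edgeR).
The groups did not overlap. Leaving out whole B6 replicate 1 or 2, or whole BALB replicate 1, ended all 3 calls, so that Epsti1 alone was called, and leaving out whole BALB replicate 2 left Epsti1 and Mx2. Eif2ak2 also lost its call without either B6 DP library. The adjusted p values over all alternatives ran from 0.000204 to 0.128 for Mx2, 0.000720 to 0.267 for Ifi44 and 0.00164 to 0.965 for Eif2ak2. Whole BALB replicate 1 is the library without Ddx3y reads.

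**Figure D5:**
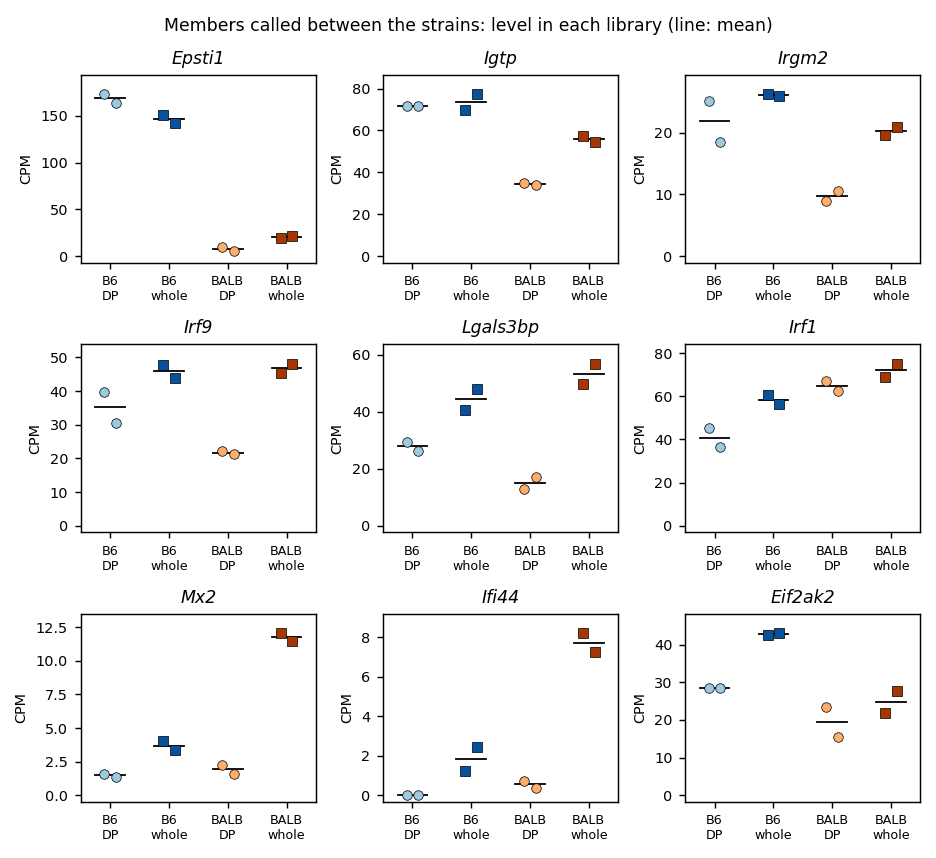
Level in each library, in CPM, of the 9 members called between the strains in DP or whole thymocytes, with lines at group means. Epsti1 is high in all B6 libraries, Igtp, Irgm2, Irf9 and Lgals3bp are lowest in BALB DP, and Mx2 and Ifi44 are highest in whole BALB.

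The genes that make, receive and relay interferon signals were counted for comparison. Beside these counts, 6.89% of all tested genes were called higher and 3.27% lower in whole B6. In whole BALB the shares were 10.6% and 6.59%. Between the strains, 13.0% were called in DP cells and 4.59% in whole thymocytes. Of 10 interferon genes, only Ifnk passed the filter, at 0 to 3.20 CPM, and 8 or 9 of the 10 had no read in each group. Ifng had 0 reads in both DP groups, 1 in whole B6 and 3 in whole BALB. Of 6 receptor chains, 5 passed: Ifngr1, a chain of the interferon-gamma receptor, was called lower in whole than in DP cells of BALB (430 and 359 CPM in DP, 275 and 318 in whole; log2 -0.42 ± 0.12, adjusted p 0.0288, edgeR). Ifnar1, a chain of the type I receptor, was called lower in BALB than in B6 DP cells (157 and 152 CPM in B6, 80.1 and 107 in BALB; log2 -0.74 ± 0.14, adjusted p 0.00499, edgeR).
No other receptor chain was called. Among kinases and inhibitors of the pathway, Ptpn2, a phosphatase that restrains the signal, was called higher in whole than in DP cells of B6 (log2 0.52 ± 0.15, adjusted p 0.0424, edgeR). The receptor-bound kinase genes Jak1 (log2 0.34 ± 0.09, adjusted p 0.0203, edgeR) and Tyk2 (log2 0.62 ± 0.20, adjusted p 0.0482) were called higher in whole than in DP cells of BALB. Of 5 other IRF factors, Irf4 (log2 1.54 ± 0.43 in B6 and 3.22 ± 0.52 in BALB) and Irf8 were called higher in whole thymocytes of both strains. Irf8, a factor of myeloid and B cells, was at 4.39 and 2.74 CPM in B6 DP against 15.2 and 20.6 in whole B6 (log2 2.36 ± 0.32, adjusted p 0.000790, edgeR), and at 3.68 and 5.05 in BALB DP against 27.0 and 21.0 in whole BALB (log2 2.52 ± 0.29, adjusted p 0.000170). Of 10 genes of upstream sensing, 9 passed the filter. Of these 9, 4 were called higher in whole B6 and 3 in whole BALB, among them Tlr7 and Tmem173 (STING) in both. Between the strains, 1 of these 9 was called (11.1%), in DP cells, which is not above the share of all tested genes there. It was the kinase gene Ikbke, lower in BALB DP, with 77.8 and 79.3 CPM in B6 and 43.6 and 60.2 in BALB (log2 -0.63 ± 0.15, adjusted p 0.0178, edgeR).

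Position in the genome was used by no rule. Leaving out Iigp1, 22 members lie in 9 groups in which neighbours are within 1000000 bases, and the members as a whole lie on 15 chromosomes. Neighbours did not always share their calls: Oas2 and Oas3 were called between preparations in both strains, as were Ifit1 and Ifit3, whereas Ifit2 beside them, Dtx3l beside Parp14, and Oasl1 beside Oasl2 were not called.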

How the data were processed

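RNA from sorted DP and whole thymocytes was made into libraries with an unstranded TruSeq RNA v2 kit, per the labels' protocols. Per the submitters' processing notes, HISAT2 2.2.0, HTSeq, DESeq2 1.42.1 and the mm10 build were used. The authors deposited raw read counts per gene symbol, 1 file a library; 22.6 to 30.8% of the reads listed fell in genes, 10.1 to 11.9% were not uniquely placed and 0.214 to 0.301% were ambiguous, and these rows were left out of tests and library sizes. Reads of both strains were counted on mm10, which is a B6 genome. Low counts were filtered by filterByExpr over the 4 groups, leaving 11409 genes. Counts were fitted over all 8 libraries with 1 coefficient a group in edgeR 4.0.16 (R 4.3.3, TMM, glmQLFit and glmQLFTest) and adjusted by Benjamini-Hochberg over all genes tested, with calls at 0.05. The standard error is the log2 fold change divided by the square root of F. The code was tested on simulated data.

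Results of 1 gene of the signalling pathway are not reported here. The members and lists were chosen with earlier results of these data known. All members were described by role; in each role group and comparison up to 3 called members with the smallest p were given in full. Exons and positions came from GENCODE (GRCm38) and promoters from RefSeq (GRCm38.p6). Folds against 0 counts used a floor of 3 counts over the group. Alternatives were another scaling (DESeq2 1.42.0 size factors, upper quartile), no filter or a strict filter, DESeq2's Wald test, limma-voom (limma 3.58.1), robust shrinkage, a test against a fold of 1.5, a replicate block, only the 4 libraries compared, and each library left out.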

Additional observations from a re-analysis of the deposited data

Results flagged for a closer look

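Epsti1 stood out because the difference between whole and DP thymocytes was not the same in the strains: the interaction was 1.55 on the log2 scale (adjusted p 0.0486, edgeR), with a whole over DP value of -0.21 in B6 and 1.35 in BALB. For 4 more members every BALB DP library lay below every B6 DP library while every whole BALB library lay above every whole B6 library. The share of all genes with this pattern was not counted, so the number of members cannot be set against it. The strain difference (log2, BALB relative to B6), first in DP cells and then in whole thymocytes, was -0.24 and 0.35 for Parp9, -0.31 and 0.25 for Sp100, and -0.94 and 0.26 for Lgals3bp. Iigp1 had 1 and 5 reads in the B6 DP libraries and none in BALB DP. Its strain differences were -1.13, a bound computed from 3 counts over the group, and 0.39. The interaction was tested for these 4 genes and was not called (adjusted p 0.378, 0.219, 0.150 and 0.273, edgeR, in the order Parp9, Sp100, Lgals3bp, Iigp1). Only Lgals3bp in DP cells was called among these strain differences. Without BALB DP replicate 2 the interaction was called for Lgals3bp and Sp100 (adjusted p 0.00227 and 0.00480; 0.00227 to 0.918 and 0.00480 to 1 over all alternatives), in a fit where 1311 genes (11.0% of all tested) were called in place of 14.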

How the results depend on the processing

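No called member changed sign in any alternative run. Of the 210 log2 values of tested members over the 5 comparisons, 48 had both signs over the alternatives and none of these was called, among them Ifit1 and Rsad2 between the strains in DP cells. The number of members called in whole over DP, B6 (18 as reported), fell to 7 with the strict filter and 11 in the test against a fold of 1.5. In whole over DP, BALB (29), it was 16 and 17. Fewer members (24) were tested under the strict filter. In BALB over B6, DP (6), it was 2 against a fold of 1.5 and 3 with only the 4 libraries compared. In BALB over B6, whole (4), it was 1 with the strict filter, 1 with DESeq2's Wald test and 2 against a fold of 1.5. The interaction (1) gave 0 with DESeq2 size factors, the strict filter, limma-voom, a fold of 1.5 or the replicate block, and 3 without a filter, when 364 genes were called in place of 14; the cause was not tested. With each library left out in turn the counts ran from 8 to 27, 23 to 31, 4 to 12, 1 to 5 and 0 to 4 in the same order, and those over all genes from 378 to 2201, 1040 to 3976, 509 to 3493, 214 to 966 and 0 to 1311. Over all genes the split also turned: whole over DP in BALB had 1920 higher and 2056 lower calls without BALB DP replicate 2, against 1209 and 752, and BALB over B6 in DP had 260 and 399 without B6 DP replicate 1, against 781 and 701. Over all genes, the 1159 calls of whole over DP in B6 became 512 with the strict filter, 748 in DESeq2's Wald test, 399 against a fold of 1.5 and 2568 with only its 4 libraries. The 1961 calls in BALB became 910 with the strict filter, 687 against a fold of 1.5 and 1101 with only 4 libraries, and upper-quartile scaling moved the split from 1209 higher of 1961 to 1337 higher of 1850. The 1482 calls between strains in DP cells became 302 against a fold of 1.5 and 562 with only 4 libraries, and the 524 in whole thymocytes became 839 without a filter, 325 with the strict filter, 217 against a fold of 1.5 and 1050 with only 4 libraries. The 14 interaction calls became 24 in DESeq2's Wald test, 23 with robust shrinkage, 8 in limma-voom and 7 against a fold of 1.5. The interaction needs all 4 groups and was not run with 4 libraries.

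Whether replicate numbers pair the libraries is not in the labels. Same-numbered deviations correlated at 0.00606 between the B6 groups and 0.0105 between the BALB groups (-0.0384 to 0.0574 over all 6 pairs of groups). With a single difference per group, such values cannot decide whether same-numbered libraries share an animal. BALB DP replicate 1 held 1177 Ddx3y reads and whole BALB replicate 1 none, so these libraries do not stem from the same single animal. The replicate block gave 16, 29, 6, 3 and 0 called members.

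The summed level without Sp100 was 1375, 1758, 1137 and 1742 CPM in B6 DP, whole B6, BALB DP and whole BALB, against means of 1567, 1952, 1293 and 1972 with it, and 1991 in whole B6 on raw library totals. With 3 letters between the GAAA repeats, the promoter motif occurred for 7 of 35 members (20%) and 3.17% of all genes. A count of 0 allows up to 0.526 to 1.16 CPM in a library, and members at that level in both groups compared have no fold.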
